A study of Mus musculus with 88 samples.

Results

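The mouse Schlafen genes Slfn1, Slfn2, Slfn3, Slfn4, Slfn5, Slfn8 and Slfn9 were followed in whole blood of lupus-prone mice, 7 of the 17097 genes that had a single-gene probe set on the array. Each gene was represented by 1 probe set, chosen by the highest mean log2 signal over the 88 arrays among the 9 single-gene probe sets that the array annotation assigned to these symbols. The family was picked because the large rise of Slfn4 at week 14 after pristane was already known from these data. For that reason every Slfn4 comparison that involves the pristane group of week 14 is given as a description, with no test, and correlations of Slfn4 were tested without that group. All mice were female SNF1 mice, the F1 offspring of SWR and NZB parents, a strain that develops lupus nephritis with age. Pristane, a hydrocarbon oil that drives lupus-like autoimmunity, was injected into the peritoneum of young adult mice, and blood was profiled at weeks 2, 4, 8, 12 and 14 after the injection. Untreated mice of matched age were profiled at the same weeks, and no vehicle-injected group was among the samples. The last group held mice of week 36, which here is an age, selected in the study for proteinuria of spontaneous disease. Each of the 11 groups had 8 arrays. No healthy mice of that age were among the samples, so age and disease cannot be told apart in that group. The labels do not say whether a mouse was bled at more than 1 week, and the spread between arrays covers mouse and array together.

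Schlafen proteins share a core domain and are best known as regulators of growth and quiescence in immune cells and as genes that type I interferon and pathogen sensing switch on. The short proteins are Slfn1, described first in thymocytes as a brake on growth, and Slfn2, whose loss deprives T cells and monocytes of quiescence. The intermediate proteins are Slfn3, described in T cells and intestinal epithelium, and Slfn4, a gene of myeloid cells that is induced in macrophages by interferon and Toll-like receptor ligands. The long proteins Slfn5, Slfn8 and Slfn9 carry in addition a region that resembles a helicase, and Slfn5 is a nuclear protein induced by interferon. In the RefSeq annotation of GRCm38.p6 the genes form 1 cluster on chromosome 11, in the order Slfn5, Slfn9, Slfn8, Slfn10-ps, Slfn2, Slfn1, Slfn4 and Slfn3 when non-Schlafen entries are passed over. The array annotation names no genome build, and positions below are those of RefSeq promoters, not of probes.

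The promoters of all 7 genes were found in RefSeq (GRCm38.p6, 300 bases each, of which 250 lie before the start of transcription). They are shown because the core of the interferon-stimulated response element, given below, was matched in Slfn5, Slfn8 and Slfn9 and not in the others. Each of these sets held members that rose after pristane and 1 that did not pass at any week (Slfn2 and Slfn9). The 250 bases before the Slfn4 start lie at chr11:83174936-83175185 on the plus strand. Capitals mark the longest stretch of letters common to the promoters of Slfn1, Slfn2, Slfn3 and Slfn4.
Slfn4 promoter: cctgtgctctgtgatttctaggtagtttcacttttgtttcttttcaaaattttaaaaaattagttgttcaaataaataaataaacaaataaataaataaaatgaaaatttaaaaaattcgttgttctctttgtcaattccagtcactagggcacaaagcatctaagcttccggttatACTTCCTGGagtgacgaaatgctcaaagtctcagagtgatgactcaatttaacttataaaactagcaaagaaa

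The shared stretch ACTTCCTGG, 9 bases long and found by reading these sequences, began at position -74 from the start of Slfn1, -55 from that of Slfn2, -42 from that of Slfn3 and -73 from that of Slfn4. Of 32851 RefSeq promoters of this length, 0.843% held it on either strand, and the windows of Slfn5, Slfn8 and Slfn9 did not. The stretch was sought only among Slfn1 to Slfn4, so its presence in each of them was fixed by the search. No stretch common to other members was sought, and the share over all promoters is no test of it. Windows of 60 bases around it are given 5′ to 3′, all on the plus strand of chromosome 11, for Slfn1 at chr11:83116720-83116779, Slfn2 at chr11:83065031-83065090 and Slfn3 at chr11:83191262-83191321.
Slfn1: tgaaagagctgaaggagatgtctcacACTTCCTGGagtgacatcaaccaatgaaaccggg
Slfn2: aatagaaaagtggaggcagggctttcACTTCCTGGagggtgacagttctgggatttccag
Slfn3: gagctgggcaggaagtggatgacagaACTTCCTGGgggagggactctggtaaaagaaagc

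The core of the interferon-stimulated response element, searched as GAAANNGAAA on both strands, occurred in 3.44% of the 32851 promoters. It was matched in the long genes Slfn5, Slfn8 and Slfn9 and in none of the windows of Slfn1, Slfn2, Slfn3 and Slfn4. In Slfn8 and Slfn9 the match lay on the opposite strand and began at positions -48 and -45 from the start. RefSeq holds a second start for Slfn8, from which the same match began at -136. The windows are at chr11:82951922-82951981 on the plus strand for Slfn5, and on the minus strand at chr11:83020824-83020883 for Slfn8 and chr11:82991841-82991900 for Slfn9. Capitals mark the match, read along the gene.
Slfn5: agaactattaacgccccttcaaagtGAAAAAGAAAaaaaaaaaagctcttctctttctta
Slfn8: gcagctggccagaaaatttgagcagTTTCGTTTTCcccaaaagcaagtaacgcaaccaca
Slfn9: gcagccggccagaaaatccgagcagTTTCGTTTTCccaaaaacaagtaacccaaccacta

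The core of the gamma-activated site, searched as TTCNNNGAA, was found in 8.30% of all promoters and in no Schlafen window. A match or its absence describes letters in these windows only.

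Signals are log2 values normalized with the robust multi-array average (RMA), so a difference of 1 is a doubling, and levels are compared between groups for 1 probe set, never between genes. Array medians ran from 3.78 to 4.01 and interquartile ranges from 2.74 to 3.78. A change passed at an adjusted p under 0.05 in limma, corrected over 45037 probe sets. Array pristane week 4 replicate 1 stood apart from its group. Its interferon response score, the mean log2 signal of 29 interferon-induced genes, was 6.29, against 7.69 to 8.44 on the other pristane arrays of that week and 6.04 to 6.59 on untreated arrays. Its neutrophil score, from 18 neutrophil genes, was 7.10, against 8.41 to 9.29 and 6.43 to 7.65. It was kept, and results that rest on it are also given without it. Since levels of different probe sets are not comparable and RMA values carry no detection call, the label of whole blood could be checked only by the changes of marker lists, given below.

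Slfn4 was higher after pristane at every week that could be tested, and its rise was among the 21 largest of all 17097 genes at each of these weeks. At week 2 the signal ran from 6.50 through a median of 8.05 to 9.23 in untreated mice and from 10.61 through 11.16 to 11.52 in pristane-treated mice. At week 4 it ran from 7.27 through 8.05 to 9.25 in untreated and from 8.26 through 11.24 to 11.96 in pristane-treated mice. Every pristane array of week 2 lay above every untreated one, and at week 4 all did but replicate 1, at 8.26. At week 8 the untreated values went from 7.43 through 8.92 to 9.57 and the pristane values from 10.86 through 11.60 to 11.80. At week 12 untreated mice had 7.54, 8.15 and 9.12 as lowest, median and highest and pristane-treated mice 10.86, 11.32 and 11.74. Again no pristane array overlapped the untreated arrays of its week.

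The rise of Slfn4 was 3.32 on the log2 scale at week 2 (95% confidence interval 2.70 to 3.95, 10.01-fold, adjusted p = 2.56e-13). It was 2.92 at week 4 (7.57-fold, adjusted p = 7.92e-11), and 3.32 without replicate 1 (adjusted p = 1.04e-15). At week 8 it was 2.71 (6.56-fold, adjusted p = 2.36e-09) and at week 12 it was 2.93 (7.61-fold, adjusted p = 9.17e-11). Week 12 and week 2 differed by -0.40 (-1.28 to 0.49, adjusted p = 0.844), so a decline of the effect between these weeks was not shown and one of up to 1.28 lies within the interval.

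At week 14, where the gene was picked, untreated values ran from 7.60 through 8.35 to 9.55 and pristane values from 10.29 through 11.39 to 11.87. The groups did not overlap, and the difference was 2.80 (2.18 to 3.43, 6.98-fold), the fifth largest rise among all genes. Because the gene was picked for its rise at this week, the gap, the interval and the rank only describe the picked value. Against untreated mice of week 12 the difference was 2.97.

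**Figure D1:**
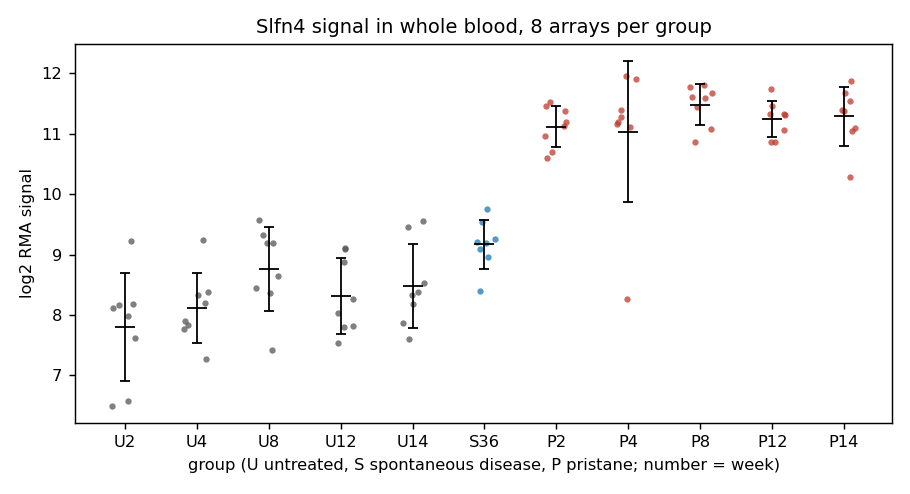
Log2 RMA signal of Slfn4 on each of the 88 arrays (points) by group (U, untreated; S36, spontaneous disease at week 36; P, pristane; numbers are weeks), with the mean and SD of 8 arrays in black. Pristane arrays sat at 10.29 or above apart from 1 array of week 4 at 8.26, untreated arrays at 9.57 or below, and the spontaneous group between 8.39 and 9.75.

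In the order of its 11 group means, Slfn4 was highest with pristane at week 8 (11.48 ± 0.34, SD, n = 8), followed by pristane at weeks 14, 12, 2 and 4 (11.04 ± 1.17). Then came spontaneous disease (9.17 ± 0.40) and the untreated groups of weeks 8, 14, 12, 4 and 2 (7.80 ± 0.90). Among neighbours in this order only the step of 1.86 from pristane week 4 to spontaneous disease exceeded the larger of the 2 SDs. Among the untreated groups alone a difference between weeks did not pass for Slfn4 (limma F test, adjusted p = 0.144) or for any other member (0 of 7, and 1 at an unadjusted p under 0.05), while 11.8% of all genes passed that test.

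Slfn3, the other intermediate member, rose at all 5 weeks, by 2.09 at week 2 (adjusted p = 1.71e-06), 2.09 at week 4 (1.88e-06), 2.89 at week 8 (1.9e-10), 1.81 at week 12 (5.46e-05) and 2.14 at week 14 (1.82e-07). At week 8 its untreated values ran from 2.96 through 3.35 to 4.34 and its pristane values from 5.64 through 6.16 to 7.28. At week 14 they ran from 3.01 through 3.37 to 4.06 and from 4.40 through 5.28 to 7.75. At each of the 5 weeks the 8 pristane arrays had no overlap with the untreated ones, replicate 1 of week 4 by a small margin (3.78 against 3.74). Its untreated group means stayed between 3.44 and 3.62.

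This result rests on probe set 1450322, whose suffix marks probes that match more than 1 transcript, so signal from a close relative cannot be separated in it. The other probe set of the gene, 1421644, had group means between 1.35 and 1.69 and showed differences of 0.03, -0.07, 0.21, -0.19 and 0.03 at weeks 2, 4, 8, 12 and 14, none of which passed. Its mean signal exceeded that of only 2.93% of probe sets, so a rise of the transcript could go unseen in it. With shared probes in the 1 set and a very dim signal in the other, the symbol Slfn3 is uncertain for this rise.

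**Figure D2:**
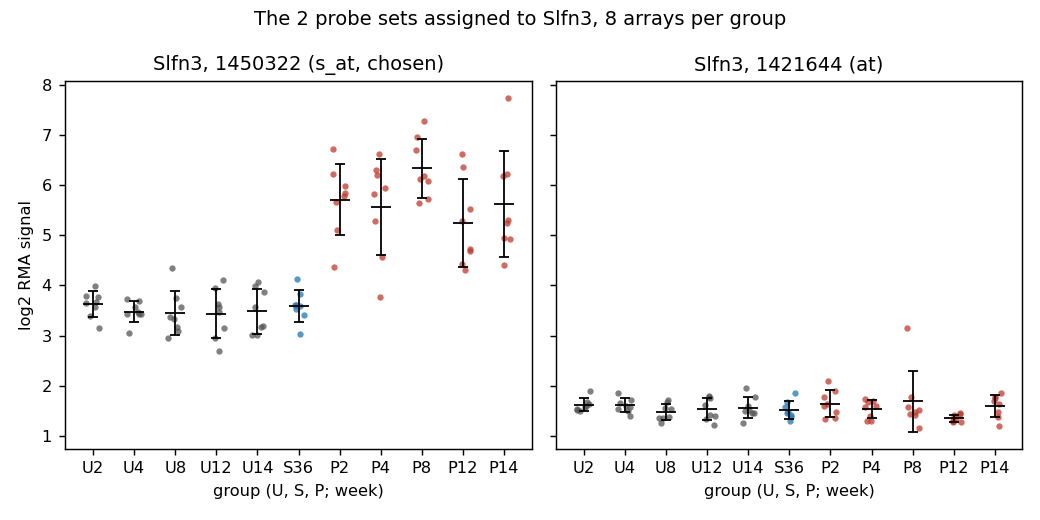
Log2 RMA signal on each array (points) of the 2 probe sets assigned to Slfn3, by group as before, with the mean and SD of 8 arrays in black. The chosen probe set reached 7.75 in pristane-treated mice, while group means of the other stayed between 1.35 and 1.69.

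Slfn1, a short member, was higher at all 5 weeks, with a rise of 1.38 at week 2 (2.61-fold, adjusted p = 1.14e-05), 1.22 at week 4, 1.03 at week 8, 0.96 at week 12 and 0.67 at week 14 (adjusted p = 0.0232). At week 2 its signal ran from 7.71 through 8.14 to 9.36 in untreated and from 9.04 through 9.63 to 10.26 in pristane-treated mice, with 5 of 8 pristane arrays above every untreated one. At week 14 it ran from 8.23 through 8.64 to 9.47 and from 8.62 through 9.61 to 10.14, again with 5 of 8 above. In a fit of the week 14 groups alone the value no longer passed (adjusted p = 0.0531).

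Slfn2, the other short member, did not pass at any week. Its differences were 0.30, 0.23, 0.26, 0.51 and 0.22, and the widest upper bound, 0.92 at week 12, leaves room for a rise of less than 2-fold. At week 12 untreated values ran from 7.34 through 7.96 to 8.53 and pristane values from 8.01 through 8.44 to 8.71. At week 14 pristane values went from 6.50 through 8.53 to 8.83, the lowest being that of replicate 7, and 4 of 8 lay above every untreated array.

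Slfn5, a long member, rose by 1.44 at week 2 (2.71-fold, adjusted p = 0.000234), 1.11 at week 4 (adjusted p = 0.00864), 1.41 at week 8 (0.000376), 1.16 at week 12 (0.0058) and 1.11 at week 14 (0.00164). At week 2 its untreated signal ran from 4.08 through 4.81 to 4.99 and its pristane signal from 5.05 through 6.28 to 7.21. At week 14 the values were 4.25, 4.59 and 4.94 against 5.01, 5.63 and 6.42. Pristane and untreated arrays did not overlap at weeks 2 and 14, and 6, 7 and 6 of 8 pristane arrays lay above every untreated one at weeks 4, 8 and 12. A second, dimmer Slfn5 probe set, 1458458, gave 0.62, 0.40, 0.60, 0.34 and 0.04, none of which passed, and in a fit of the 2 groups alone the week 4 call was lost (adjusted p = 0.0575).

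Slfn8, also long, rose less, by 0.89 at week 2 (1.85-fold, adjusted p = 0.000859), 0.74 at week 4, 0.70 at week 12 and 0.56 at week 14 (adjusted p = 0.0192). At week 2 no array overlapped, with 6.88, 7.41 and 7.68 as lowest, median and highest untreated values and 7.75, 8.14 and 9.004 after pristane. At week 8 the difference was 0.45 and did not pass (adjusted p = 0.228). The week 12 call was lost in a fit of its 2 groups alone (adjusted p = 0.0679).

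Slfn9, the remaining long member, showed no change that passed, with differences of -0.06, 0.08, -0.08, 0.09 and -0.15 and confidence bounds no farther from 0 than -0.46 and 0.40. Its 11 group means lay between 3.49 and 3.86, under the overall median signal of 3.89, so the absence of transcript cannot be told from a dim probe set.

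**Figure D3:**
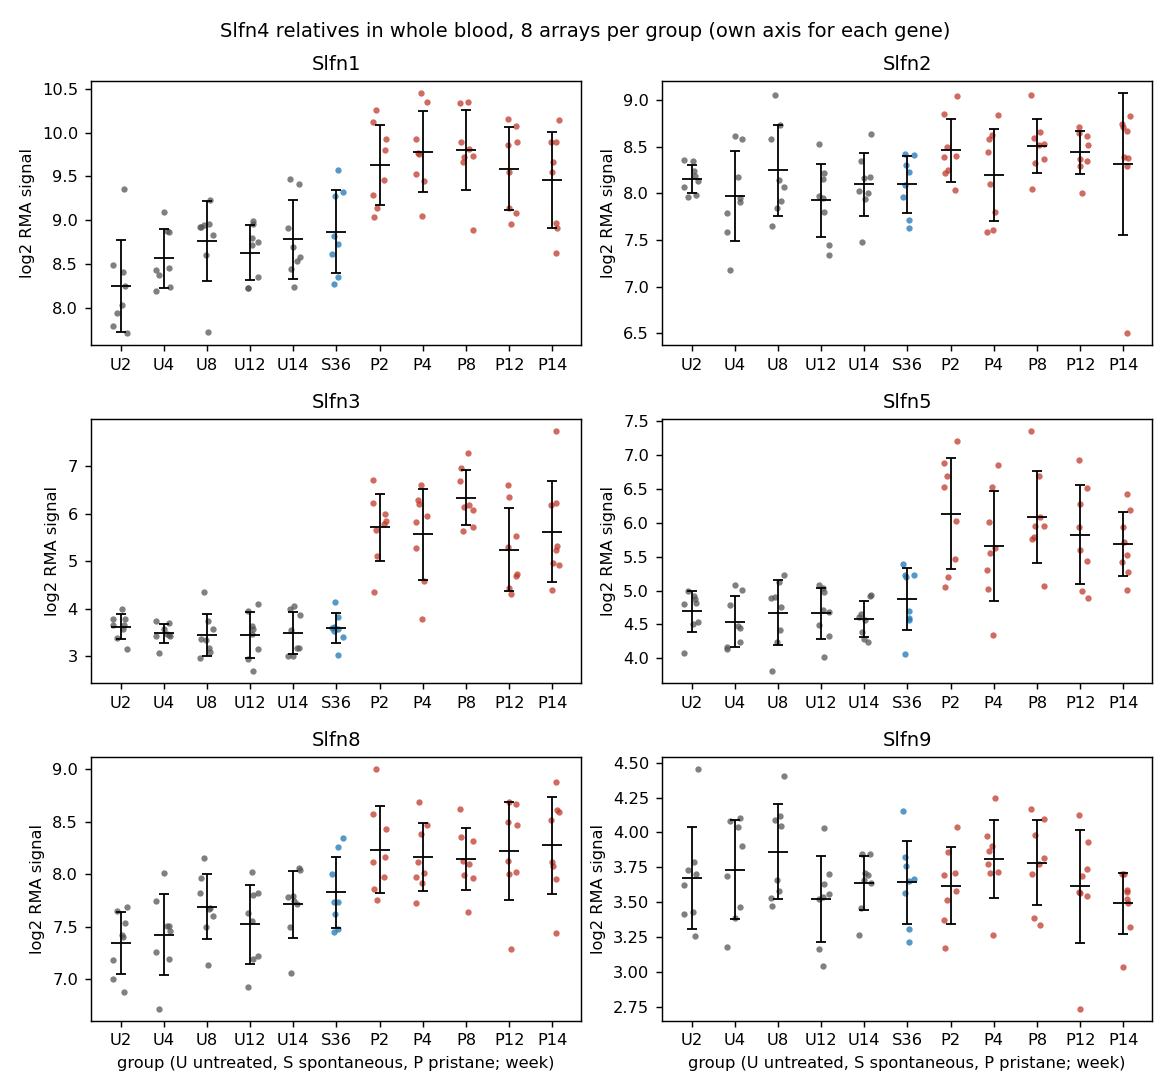
Log2 RMA signal of the other 6 members on each array (points) by group, with the mean and SD of 8 arrays in black and an own axis for each gene. Pristane arrays of Slfn3 lay above the untreated ones of the same week at all 5 weeks, those of Slfn1, Slfn5 and Slfn8 overlapped them at some or all weeks, and no Slfn2 or Slfn9 difference passed.

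Over the family, 5 of 7 members were higher at week 2, 5 of 7 at week 4, 4 of 7 at week 8 and 5 of 7 at week 12, while of all 17097 genes 2.29%, 2.18%, 1.85% and 2.7% were. At week 14, 4 of the 6 tested relatives were higher, against 12.7% of all genes. No member was lower at any week, while 1.29%, 0.801%, 0.778%, 1.06% and 9.72% of all genes were at the 5 weeks in turn. At an unadjusted p under 0.05 also no member was lower, against 9.2%, 6.62%, 7.28%, 7.32% and 14.5% of all genes. At a change of more than 2-fold, 4, 4, 4 and 3 of 7 members and 2 of 6 at week 14 were called, against 1.15%, 1.33%, 1.11%, 1.25% and 1.87% of genes. The median change of the members was 1.38, 1.11, 1.03, 0.96 and 0.67 at weeks 2, 4, 8, 12 and 14, and that of all genes was -0.02, 0.00, -0.01, 0.01 and 0.12. The member median of week 14 takes in Slfn4, which was picked at that week, and is a description.

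Whether the pristane effect on a member differed between the 5 weeks was tested with an F test over the differences. None of the 6 relatives passed (0 also at an unadjusted p under 0.05), with adjusted p values from 0.49 for Slfn3 to 0.936 for Slfn2, while 3.16% of all genes passed.

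**Figure D4:**
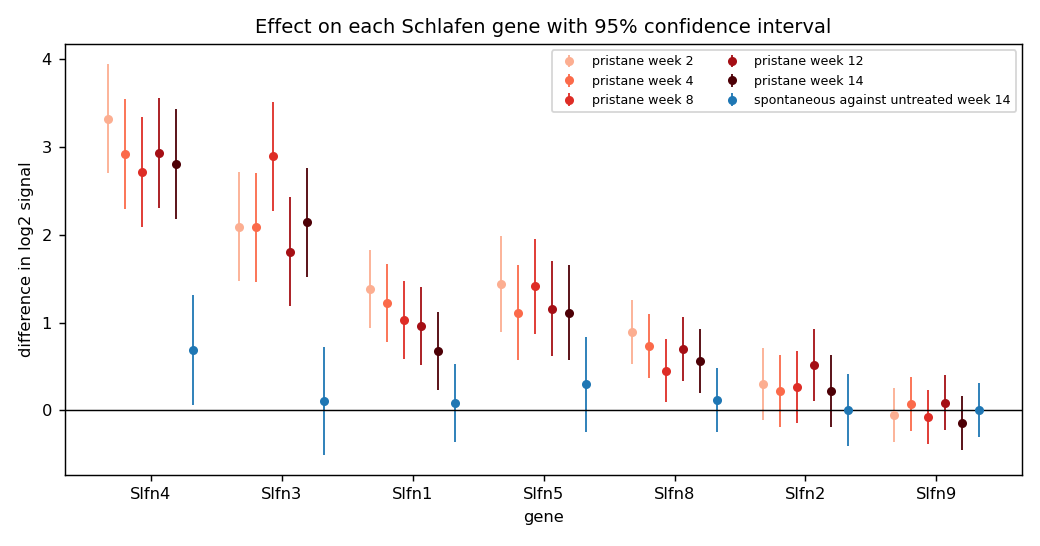
Difference in log2 signal between pristane and untreated mice at each week, and between spontaneous disease and untreated mice of week 14, for each Schlafen gene (points), with 95% confidence intervals from limma (bars). Slfn4 lay between 2.71 and 3.32 after pristane, Slfn9 between -0.15 and 0.09, and the spontaneous difference was at most 0.69.

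The effect on Slfn4 was set directly against that on each relative through the difference of the 2 signals on each array, with an exact two-sided permutation test over the 16 arrays of a week and adjustment over 24 comparisons at weeks 2, 4, 8 and 12. The smallest p this test can give is 0.000155. On the log2 scale the measured difference was larger for Slfn4 than for all 6 relatives at weeks 2, 4 and 12 and than for 5 of 6 at week 8. The untreated means of Slfn3 and all means of Slfn9 lay under the overall median signal, where log2 differences can be compressed, so for these 2 genes the excess is one of probe set signals and may not be one of transcripts. The Slfn3 probe set may in addition hold signal of Slfn4 itself, which was not tested. Against Slfn3 its effect was larger by 1.23 ± 0.37 (SE) at week 2 (exact permutation test, adjusted p = 0.00392), 0.83 ± 0.31 at week 4 (0.0186) and 1.12 ± 0.41 at week 12 (0.0186). At week 8 it differed from that on Slfn3 by -0.18 ± 0.28 (adjusted p = 0.533). The week 4 difference was lost after quantile normalization (0.62, adjusted p = 0.0697), and it was 0.97 without replicate 1 (adjusted p = 0.0071).

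Against Slfn1 the excess of Slfn4 was 1.94, 1.70, 1.68 and 1.97 at weeks 2, 4, 8 and 12, and against Slfn5 it was 1.88, 1.81, 1.30 and 1.77. Against Slfn8 the excess lay between 2.18 and 2.43. It was widest against the members without a call, Slfn2 (2.41 to 3.02) and Slfn9 (2.79 to 3.38). At week 14 the untested excess was 0.66 over Slfn3, 1.69 over Slfn5, 2.13 over Slfn1, 2.24 over Slfn8, 2.58 over Slfn2 and 2.95 over Slfn9.

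In spontaneous disease no member differed from untreated mice of week 14 at the threshold (0 of 7, limma, adjusted p = 1 for each), as for all genes, of which 0% were higher and 0% lower. At an unadjusted p under 0.05, 1 member was higher and none lower, against 2.09% and 1.39% of all genes. Slfn4 ran from 8.39 through 9.20 to 9.75 in these mice and was 0.69 above untreated week 14 (0.06 to 1.31, 1.61-fold). Its 8 arrays overlapped the untreated range, which reached 9.55. Against the mean of all untreated groups the difference was 0.88 (0.39 to 1.36, adjusted p = 0.0518). For Slfn1, Slfn2, Slfn3, Slfn8 and Slfn9 the differences from untreated week 14 lay between 0.00 and 0.12, and for Slfn5 it was 0.29.

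Pristane at week 14 was also compared with spontaneous disease, a contrast in which age differs too. Of the 6 relatives, 2 were higher, against 5.59% of all genes, and none was lower, against 4.42%. Slfn3 was higher by 2.03 (adjusted p = 2.75e-06), with 3.03 to 4.13 in spontaneous disease, and Slfn5 by 0.82 (adjusted p = 0.0412). Slfn1 was 0.59 higher (adjusted p = 0.0796) and passed with array weights (0.69, adjusted p = 0.0309). With each array's interquartile range as covariate, Slfn1 (0.81, adjusted p = 0.00345) and Slfn8 (0.58, adjusted p = 0.0197) also passed, which made 4 of 6. The share of all genes higher in that fit was not counted, so this number has no background beside it. The range itself differed between the groups, with means of 3.25 in pristane week 14 and 3.45 in spontaneous disease. Slfn4 was higher by 2.12 (1.49 to 2.74, 4.34-fold), a description only.

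Interferon-induced genes moved at the same weeks. Of 29 measured genes of this list, 22, 21, 19, 22 and 20 rose at weeks 2, 4, 8, 12 and 14 and none fell, with median changes of 1.82, 1.63, 1.39, 1.70 and 1.02. Irf7, the regulator of interferon production, rose by 3.74 at week 2 and 2.95 at week 14. Rtp4, an interferon-induced chaperone, rose by 3.93 and 2.73, and Usp18, a deconjugating enzyme that restrains interferon signalling, by 3.87 and 2.00. In spontaneous disease none of the 29 passed (median 0.18).

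Neutrophil genes moved at the same weeks, and their median change was the largest among the 7 cell type lists at each of the 5 weeks. Of 18 measured genes, 17, 16, 14, 17 and 14 rose and none fell, with medians between 1.33 and 1.71. Granule proteins Lcn2 (2.55 at week 2, 2.18 at week 14) and Mmp8 (2.27 and 1.96) and the alarmin S100a8 (1.04 and 0.97) were among them. The mean neutrophil score was 8.25 to 9.07 in pristane groups, 6.77 to 7.41 in untreated groups and 7.69 in spontaneous disease. In whole blood, more cells of a type and more RNA per cell cannot be told apart. Among monocyte genes 3, 3, 2, 4 and 2 of 12 rose and 1, 0, 1, 1 and 2 fell, with medians of 0.28, 0.52, -0.05, 0.40 and -0.05. Cd14, a lipopolysaccharide co-receptor, was at 1.57 at week 2 and 0.92 at week 14. Fcgr1 was at 1.28 and 0.85, and Emilin2 at 0.87 and 0.40, the last of which did not pass.

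Lymphoid lists went down in part. T cell genes fell in 0, 1, 0, 3 and 7 of 16. The adhesion receptor gene Cd2 was at -0.56 at week 2 (not passed) and -0.999 at week 14, the transcription factor gene Lef1 at -0.57 (not passed) and -0.68, and the T cell receptor component gene Cd3e at 0.38 and -0.09, neither of which passed. B cell genes fell in 1, 3, 0, 3 and 7 of 11, with the complement receptor Cr2 at -0.81 and -1.29. NK cell genes fell in 3, 1, 4, 0 and 4 of 8, with the activating receptor Ncr1 at -1.10 and -1.33, and 1 rose at week 14. Platelet genes rose in 10 of 10 at week 14 and in none before. Erythroid genes rose in 1 of 10 at week 2, 4 of 10 at week 14 and none at the other weeks. The mean erythroid score at week 14 was 8.17 with pristane and 7.23 in untreated mice, while the other untreated groups had 8.07 to 8.23. No gene of these lists passed in spontaneous disease.

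When the neutrophil score of each array was added to the fit, the number of higher members fell to 1, 0, 1 and 0 of 7 at weeks 2, 4, 8 and 12 and to 1 of 6 at week 14. In that fit 1.15%, 0.445%, 0.819%, 0.205% and 18.4% of all genes were higher. Slfn4 then differed by 1.59 at week 2 (adjusted p = 0.00129), 0.79 at week 4 (0.168), 0.77 at week 8 (0.149) and 1.07 at week 12 (0.0648), and its untested difference at week 14 fell from 2.80 to 1.31. The calls of weeks 4, 8 and 12 hinged on 1 array. Without pristane week 4 replicate 1 the same fit, added after seeing the data, gave Slfn4 differences of 1.86 (5.45e-05), 1.29 (0.0138), 1.07 (0.0217) and 1.36 (0.00746), all of which passed, and 1.54 at week 14 (not tested). Leaving out the array raised calls for all genes too, of which 6.39%, 11.8%, 7.61%, 5.87% and 26.4% were then higher at the 5 weeks, while 1, 1, 2 and 1 of 7 members and 1 of 6 at week 14 were. Slfn3 passed in both fits at week 8 (1.498, adjusted p = 0.0167, and 1.64, adjusted p = 0.00513) and at week 14 (1.07, adjusted p = 0.0129, and 1.18, adjusted p = 0.00677). Slfn1 fell to 0.31 at week 2 (adjusted p = 0.5) and to between -0.26 and -0.10 at the later weeks, none passing. Neutrophil scores of pristane arrays all lay above those of untreated arrays at week 2 (lowest 7.88, highest untreated 7.64) and week 8 (8.47 and 7.79). They did so at week 12 (8.24 and 7.48) and week 14 (7.86 and 7.81), and at week 4 for all but replicate 1. Since the score thus nearly follows treatment, the covariate cannot separate neutrophil content from other effects of pristane. The part of neutrophil content in the Schlafen changes was not tested.

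Within groups, after each group's mean was removed, the members were related to the interferon response, neutrophil and T cell scores over the 88 arrays (permutation test with 100000 resamples within groups, 21 relations, Benjamini-Hochberg). For Slfn4 the values over 88 arrays are a description, and the test, added after seeing the data, used the 80 arrays outside the pristane group of week 14. Over the 80 arrays Slfn4 followed the neutrophil score (r = 0.734, rho = 0.658, adjusted p = 3.5e-05 for r and 5.25e-05 for rho) and the interferon score (r = 0.635, rho = 0.562, same adjusted p). Over 88 arrays r was 0.712 (rho = 0.618) and 0.63 (rho = 0.56). Leaving out the 2 arrays with the most extreme scores, 1 of which was pristane week 4 replicate 1, lowered these to r = 0.566 and r = 0.453. With the T cell score r over 80 arrays was 0.168 (adjusted p = 0.197) and rho 0.297 (adjusted p = 0.0119), so that relation rests on the measure used.

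Among the relatives, Slfn1 followed the neutrophil score (r = 0.626, rho = 0.564) more closely in value than the interferon (r = 0.474) and T cell scores (r = 0.475, rho = 0.518, adjusted p = 4.67e-05), and Slfn5 the interferon score (r = 0.58, rho = 0.521) more than the neutrophil score (r = 0.41). The differences between these correlations were not tested. The T cell score was also related to Slfn2 (r = 0.323, rho = 0.322), Slfn5 (r = 0.33, rho = 0.389) and Slfn8 (r = 0.293, rho = 0.279), with adjusted p of 0.00409, 0.00571 and 0.0105 for r, all of which were lost after quantile normalization. For Slfn3 (r = 0.157) and Slfn9 (r = -0.0722) it did not pass. The interferon and neutrophil scores were related to Slfn2 as well (r = 0.339 and 0.356, adjusted p = 0.00348 and 0.00409 in the same permutation test). They were also related to Slfn8 (r = 0.467 and 0.334, adjusted p = 3.5e-05 and 0.00362), the neutrophil relation being lost after quantile normalization. Without the 2 extreme arrays r was 0.239 and 0.33 for Slfn2 and 0.506 and 0.414 for Slfn8. Slfn3 was at r = 0.51 with the interferon and 0.517 with the neutrophil score, and 0.374 and 0.444 without the 2 extreme arrays. Slfn9, flat between groups, was related to the interferon score (r = 0.335, rho = 0.31, adjusted p = 0.00338) and was at r = 0.095 with the neutrophil score (adjusted p = 0.425). Its r with the interferon score was 0.25 without the 2 extreme arrays and 0.265 without pristane week 4 replicate 1 alone.

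The relation of Slfn4 to its relatives within groups was added after seeing the data (6 relations, permutation test over the same 80 arrays). It was closest in value with Slfn1 (r = 0.59, rho = 0.644, adjusted p = 6e-05), followed by Slfn5 (r = 0.411, rho = 0.373, adjusted p = 0.00021), Slfn3 (r = 0.402, rho = 0.329, adjusted p = 0.00098) and Slfn8 (r = 0.264, rho = 0.297, adjusted p = 0.0244). Slfn2 (r = 0.193, rho = 0.192) and Slfn9 (r = 0.194, rho = 0.146) did not pass. Over 88 arrays without the 2 most extreme arrays of each relative, r was 0.55, 0.333, 0.236, 0.238, 0.17 and 0.246 in the order Slfn1, Slfn5, Slfn3, Slfn8, Slfn2 and Slfn9.

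**Figure D5:**
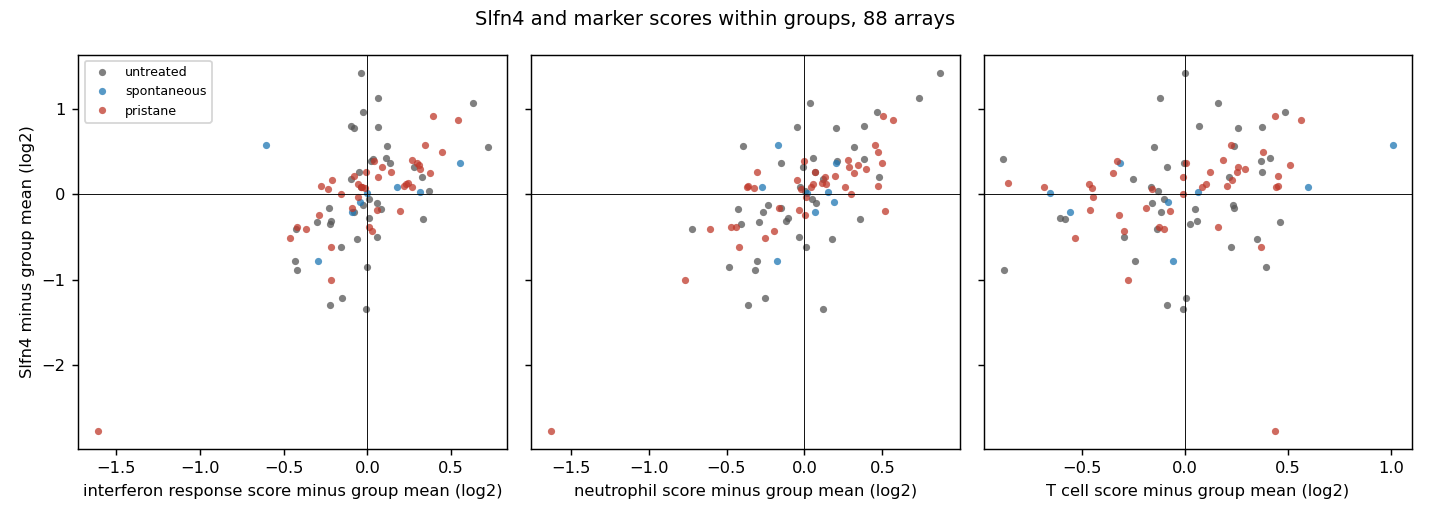
Slfn4 signal minus its group mean (vertical) against the interferon response, neutrophil and T cell scores minus theirs (horizontal), in log2 units, for 88 arrays coloured by untreated, spontaneous and pristane. The point at the lower left of the first 2 panels is pristane week 4 replicate 1, and r was 0.63, 0.712 and 0.183.

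The genes whose 11 group means tracked Slfn4 most closely were Rtp4 (r = 0.995), Oasl2, Ifi27l2a, Oas1g, Vti1b, Oas2, Hdc and Mrgpra2b (r = 0.989). Known interferon-induced genes among them are Rtp4, Ifi27l2a and the oligoadenylate synthetase family genes Oasl2, Oas1g and Oas2, and Hdc encodes the enzyme that makes histamine. Within groups the closest were Oasl2 (r = 0.782), the glycoprotein gene Lrg1 (0.772), Steap4 (0.764), the chemokine receptor gene Cxcr2 (0.733) and the gelatinase gene Mmp9 (0.724), and without pristane week 4 replicate 1 they lay between 0.68 and 0.71. These are descriptions over 11 groups or 88 arrays that share mice and array normalization. By group means Slfn1 stood at place 30 in this ranking (r = 0.977), Slfn8 at 35, Slfn5 at 67, Slfn3 at 82, Slfn2 at 473 and Slfn9 at 9972 (r = -0.05).

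The array annotation held 2 further Schlafen symbols. Slfn10-ps, a pseudogene, had group means between 3.36 and 3.60 and changed at no week. Slfnl1, a Schlafen-like gene, was 0.65 higher at week 14 (adjusted p = 0.0108), but 0.24 against untreated mice of week 12 (adjusted p = 0.541), and it passed at no other week.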

How the data were processed

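Whole blood RNA in 88 samples of female SNF1 mice was hybridised to Affymetrix HT MG-430 PM arrays, 8 in each of 11 groups. The authors deposited log2 values normalized with RMA, 1 per probe set and array, so probe-level signals, detection calls and depth play no part here. Precision depends on how many arrays a group has and on the spread of each probe set between arrays. Of 45141 probe sets, 104 controls were left out. Genes came from the platform annotation, in which 28898 probe sets had 1 gene, 551 several and 15588 were not listed, and a gene was represented by its probe set with the highest mean, for 17097 genes.

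Group means were fitted to the 88 arrays with limma (version 3.58.1, R 4.3.3, empirical Bayes) over 45037 probe sets, with Benjamini-Hochberg adjustment over them within each comparison and 77 residual degrees of freedom. A call needed an adjusted p under 0.05. Permutation tests were written in Python 3.11.15, with ranks for rho from SciPy 1.17.1. Scores were means of log2 signals over a list. The fits were tested on simulated data. The members, the gene lists and the tests were chosen with earlier results of these data known. Named genes were the 7 members, any other Schlafen symbol, the 8 genes closest to Slfn4 by group means and the 5 closest within groups, and of each list some of the 3 genes with the largest moderated t at week 2. Alternatives were quantile normalization, a filter on dim probe sets, the fit of only the compared groups, array weights, the interquartile range or the neutrophil score as covariate, other controls, other probe sets, the replicate number as block and arrays left out. Sequences came from RefSeq promoters of GRCm38.p6.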

Additional observations from a re-analysis of the deposited data

Results flagged for a closer look

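In 8 of the 77 sets of 8 arrays (7 members in 11 groups) the lowest or highest array lay apart from the rest by Dixon's criterion, which chance meets in about 1 of 20 sets. For Slfn4 this was pristane week 4 replicate 1, at 8.26 with the nearest array at 11.11, the array that also had the lowest interferon and neutrophil scores of its group. For Slfn2 it was pristane week 14 replicate 7, at 6.50 with the nearest at 8.29, and without that array the week 14 difference of Slfn2 was 0.48 (limma, adjusted p = 0.0574). For Slfn1 it was pristane week 8 replicate 8 (8.88, nearest 9.66), untreated week 2 replicate 8 (9.36, nearest 8.49) and untreated week 8 replicate 2 (7.72, nearest 8.60). For Slfn3 it was untreated week 4 replicate 8 (3.06, nearest 3.43). For Slfn9 it was pristane week 12 replicate 3 (2.74, nearest 3.54) and untreated week 2 replicate 6 (4.46, nearest 3.79). The signal of each array was also correlated, over the tested probe sets, with the mean of the rest of its group. Replicate 8 had the lowest value in every group but pristane weeks 12 and 14, such as 0.96 at pristane week 8. The lowest value of all, 0.9578, was that of pristane week 14 replicate 7, and pristane week 4 replicate 1 had 0.9749. Whether these arrays differ for a technical reason was not tested.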

How the results depend on the processing

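Under quantile normalization, array weights, the fit of only the compared groups, the replicate block, other controls and the single arrays left out, the number of members called higher stayed within 1.5 times its value in each comparison. With the neutrophil score as covariate it became 1, 0, 1, 0 and 1 at weeks 2, 4, 8, 12 and 14. It became 1 for pristane week 14 against spontaneous disease, where 9.3% of all genes were higher in that fit. With that covariate and without pristane week 4 replicate 1, chosen after seeing the data, the number became 1, 1, 2, 1 and 1. Against spontaneous disease it was again 1, where 15.9% of all genes were higher. With the interquartile range as covariate the number became 4 against spontaneous disease, in a fit whose share of all genes was not counted. The filter on dim probe sets, which changed no call, uses the mean over all arrays, which Slfn3 exceeds only through its pristane groups, so it adds nothing for that gene.

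Directions turned mainly with the neutrophil covariate, and none of the turned values passed. Slfn1 was at -0.10, -0.18, -0.19 and -0.26 at weeks 4, 8, 12 and 14, and at -0.35, -0.33, -0.34 and -0.37 also without that array. Slfn2 was at -0.26, -0.46, -0.37, -0.087 and -0.26 at weeks 2, 4, 8, 12 and 14, and at -0.26, -0.48, -0.38, -0.096 and -0.27 without it. Slfn8 was at -0.066 and -0.16 at week 8, and Slfn9 at -0.059 and -0.029 at weeks 4 and 12 with the covariate alone. For spontaneous disease against untreated week 14, the covariate gave -0.17 for Slfn1, -0.13 for Slfn2, -0.18 for Slfn3 and -0.023 for Slfn9, and without the array -0.20 for Slfn1, -0.13 for Slfn2, -0.15 for Slfn3 and -0.010 for Slfn8. For pristane week 14 against spontaneous disease it gave -0.090 for Slfn1 and -0.13 for Slfn2, and without the array -0.18 and -0.14. For Slfn3, probe set 1421644 gave -0.072 at week 4, -0.19 at week 12 and -0.051 in spontaneous disease, and for Slfn5, probe set 1458458 gave -0.057 for pristane week 14 against spontaneous disease. Differences near 0 in spontaneous disease turned with array weights for Slfn2 (-0.041) and Slfn8 (-0.0092), and for Slfn9 with quantile normalization (-0.018), the interquartile range (-0.0067) and the mean of the untreated groups as control (-0.044). The causes were not tested. Quantile normalization left 4 within-group relations no longer past the threshold, those of Slfn2, Slfn5 and Slfn8 with the T cell score (r = 0.20, 0.22 and 0.14) and of Slfn8 with the neutrophil score (r = 0.21).

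The labels do not say what the replicate numbers mean, and equal numbers were not taken to pair mice. Over 40 pairs of arrays with the same number and week, deviations correlated between -0.242 and 0.554, 11 of them over 0.1. Of 40 pristane arrays, 8 correlated best with their own number, which does not settle whether mice were paired. With the replicate block no call of a member changed. Again 5, 5, 4, 5 and 4 members were higher at the 5 weeks, 0 in spontaneous disease and 2 against it. The shares of all genes in that fit were not counted.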
